A study of Mus musculus with 8 samples.

Results

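The genes described here are the noncoding RNA genes and pseudogenes among the genes that the authors listed as differing between MIN6-K8 cells treated with selenomethionine (SeMet) and untreated cells. They were chosen by looking up each Ensembl identifier of the table in GENCODE M21 (GRCm38) and keeping every gene whose type was not protein coding. This gave 166 of 3278 listed genes. They comprised 94 long noncoding RNA genes, 31 antisense RNA genes, 35 pseudogenes and 6 genes of small or ribosomal RNA, beside 3111 protein-coding genes. The identifier ENSMUSG00000109836 had no entry in the annotation and was not counted. It had a mean normalised count of 454 ± 46.4 in SeMet and 607 ± 106 in Control (SD, n = 4 each), and the limma log2 fold change was -0.41 ± 0.11 (SE; adjusted p over all annotated genes = 0.0665).

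MIN6-K8 is an insulin-secreting line from a mouse insulinoma. The labels give its background strain as IT6 and its genotype as wild-type. The SeMet group was 4 libraries of cells kept for 6 days with 40 µM SeMet, a methionine in which selenium takes the place of sulfur, and the Control group was 4 libraries of untreated cells. All 8 libraries share the line and the genotype, and the labels name no vehicle for Control. The labels do not state whether libraries within a group were separate cultures. P-values accordingly describe only how far these samples spread, and that spread may be technical.

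Long noncoding RNAs are transcripts without a long reading frame, often kept in the nucleus, and many start next to a coding gene. Antisense RNAs are read from the strand opposite a coding gene. Processed pseudogenes are copies of messenger RNAs that were inserted back into the genome, so their sequence can be close to that of the parent gene. 7SK RNA, the product of Rn7sk, is a small nuclear RNA that holds the elongation factor P-TEFb inactive, and Neat1 is the scaffold of nuclear bodies called paraspeckles.

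The table holds genes chosen for differing, by a rule not given in the sources used here. Under a limma adjusted p over the listed genes, 3277 of 3278 genes (100%) passed 0.05, which follows from that choice. Rose and fell are therefore used below only for genes with a limma adjusted p under 0.05 over all 55536 annotated genes, in which every unlisted gene was given a p of 1. Adjusted p-values below are of this kind unless said otherwise. Listed genes held 8544454 to 11144953 reads per library, where 1 read was taken as the step between values, 0.885 to 1.15 normalised counts. All 10 beta cell markers looked up were in the table. Of these 6 fell, 3 did not pass and 1, Iapp, rose by 0.18 on the log2 scale. Over all listed genes 38.2% fell and 33.1% rose. Ins2, which fell, was at 1169266 ± 54381 in SeMet and 1372588 ± 82803 in Control (SD, n = 4 each). Of the acinar, duct, endothelial and immune markers none was listed, and of the stromal markers Col1a1 was the only one. Col1a1 was at 5.48 ± 2.96 in SeMet and 16.2 ± 4.01 in Control. In bulk RNA, fewer cells of a type and less RNA per cell cannot be told apart.

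The sequences that matter for reading the results are given first. The 3 members annotated as microRNA genes are almost the same sequence. They are shown because Gm23935 and Gm24270 are identical, so that reads lying within their 57 bases cannot be told apart by sequence. Their mean normalised counts over all libraries were nonetheless 31639 and 429, and how reads were assigned between them was not tested. Gm24187 differs from them at 1 position, in capitals (G11A in Gm24187, counted from 1 at the 5′ end of Gm23935).
Gm23935, chr16:11144125-11144181, plus strand: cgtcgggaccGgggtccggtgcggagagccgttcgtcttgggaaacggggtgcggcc
Gm24270, chr9:56223715-56223771, minus strand: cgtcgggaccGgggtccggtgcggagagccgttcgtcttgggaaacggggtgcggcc
Gm24187, chr13:9834469-9834525, minus strand: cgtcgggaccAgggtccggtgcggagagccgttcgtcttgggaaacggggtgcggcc
The first 100 of the 331 bases of Rn7sk are shown as the identity of the small RNA with the lowest fold change, with GATC in capitals, a motif of the 5′ hairpin that the 7SK particle is known to use. All 3 GATC matches of the transcript lie in this stretch.
Rn7sk, chr9:78175534-78175633, minus strand: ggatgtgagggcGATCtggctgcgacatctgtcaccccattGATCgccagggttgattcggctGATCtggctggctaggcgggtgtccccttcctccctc

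Of the 166 genes, 113 had a higher mean in SeMet and 53 a lower one, where 47% of all listed genes were higher. Under the adjustment over all annotated genes 79 rose (47.6%), against 33.1% of all listed genes, and 29 fell (17.5%), against 38.2% of all listed genes. The median log2 fold change was 0.46, against -0.13 over all listed genes and -0.14 over the listed coding genes. In 95 genes (57.2%) every SeMet library lay above every Control library, against 40.3% of the table. In 42 genes (25.3%) every SeMet library lay below, against 45.6% of the table, and in 29 genes the groups overlapped. A log2 fold change of at least 1 was reached upward by 26 of the 166 genes, against 71 of 3278 in the table (2.17%). Downward it was reached by 16, against 108 in the table (3.29%). This comparison was not matched for level, and low coding genes of the table had the larger changes. The median of listed coding genes was -0.71 between 20 and 50 normalised counts and -0.10 above 1000. Under the adjustment over the listed genes 113 were higher and 52 lower, where 47% and 53% of the table were. After quantile scaling 96 rose and 19 fell. Without SeMet replicate 2 the counts that rose and fell were 47 and 19, and without SeMet replicate 1 52 rose. Shares of all listed genes under these alternatives are not given. A loss particular to these genes thus cannot be told from a loss over the whole table.

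Direction varied by class, and the difference between classes was not tested. Over all listed genes 47% were higher, 33.1% rose and 38.2% fell. Of the long noncoding genes 74 of 94 had a higher mean in SeMet, 56 rose (59.6%) and 9 fell (9.57%), with a median log2 fold change of 0.52. The antisense genes were close to them, with 23 of 31 higher, 15 risen, 5 fallen and a median of 0.61. Of the pseudogenes 15 of 35 were higher (42.9%), 7 rose (20%) and 15 fell (42.9%), with a median of -0.38. Their shares that were higher and that fell were thus close to those of the table. Of the 6 small and ribosomal RNA genes 1 was higher and rose, 5 were lower without passing, and the median was -2.17. Among the types of long noncoding gene, 9 of 10 bidirectional promoter RNAs rose and the other fell. Without SeMet replicate 2 the long noncoding genes that rose numbered 30 and the pseudogenes that fell 8. The long noncoding count was 36 without SeMet replicate 1. The pseudogene count was 8 without Control replicate 2 and 9 without Control replicate 3. These counts too have no share of all listed genes from the same fit beside them.

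**Figure D1:**
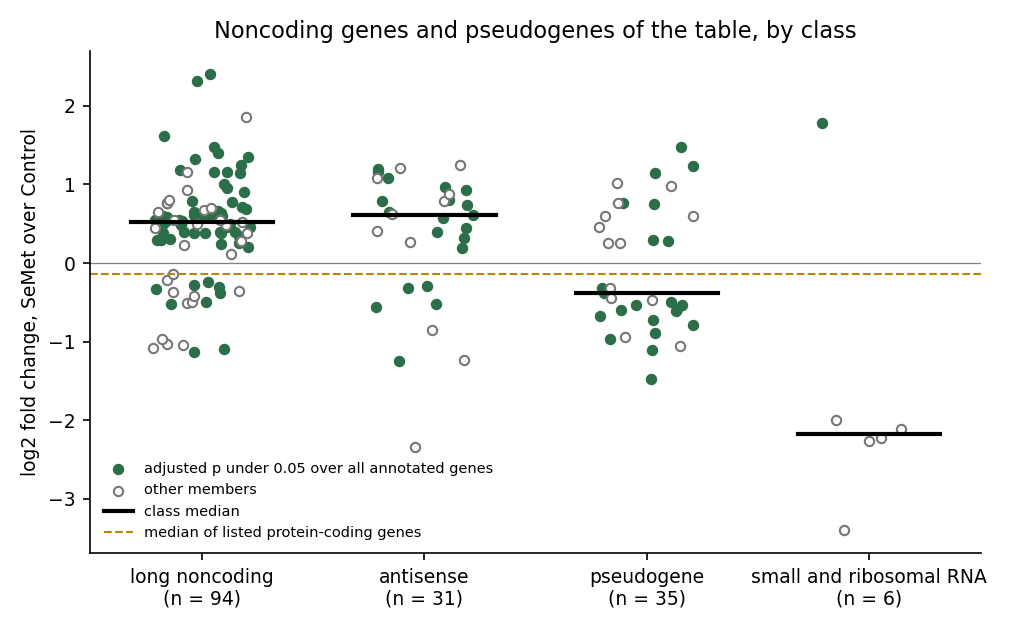
Log2 fold change of SeMet over Control (vertical axis) for each of the 166 genes, by class, with filled points for an adjusted p under 0.05 over all annotated genes, bars for class medians and a dashed line for the median of the listed coding genes. Long noncoding and antisense genes lie mostly above 0, with medians of 0.52 and 0.61. Pseudogenes lie on both sides of 0, with a median of -0.38.

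The values of the classes were also taken library by library. Taken as the median deviation from the Control mean on the log2 scale, the long noncoding genes stood at 0.56, 0.56, 0.46 and 0.40 in SeMet libraries 1 to 4, against -0.03, -0.02, 0.01 and 0.06 in Control libraries 1 to 4. Antisense genes stood at 0.49 to 0.56 in SeMet and -0.07 to 0.12 in Control. Pseudogenes stood at -0.49 to -0.22 in SeMet and -0.06 to 0.05 in Control. The small and ribosomal RNA genes were spread far more in Control, at 0.81, -1.49, -0.25 and 0.93, and stood at -1.45, -2.15, -2.0 and -2.91 in SeMet.

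These genes were expressed at low levels, with a median normalised count of 91.7 over all libraries, against 1094 for the listed coding genes. Coding genes at the same level did not show the split. Among genes with a mean of at most 200, 74 of 89 long noncoding and antisense genes (83.1%) were higher in SeMet with a median log2 fold change of 0.61, against 190 of 449 coding genes (42.3%) with a median of -0.44. Between 20 and 50 normalised counts the shares were 92% of 25 long noncoding and antisense genes and 42.5% of 113 coding genes. Above 1000 they were 54.5% of 11 genes and 49.3% of 1631 coding genes. All of these genes passed the authors' selection, so the shares describe the table and not all genes of their level.

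**Figure D2:**
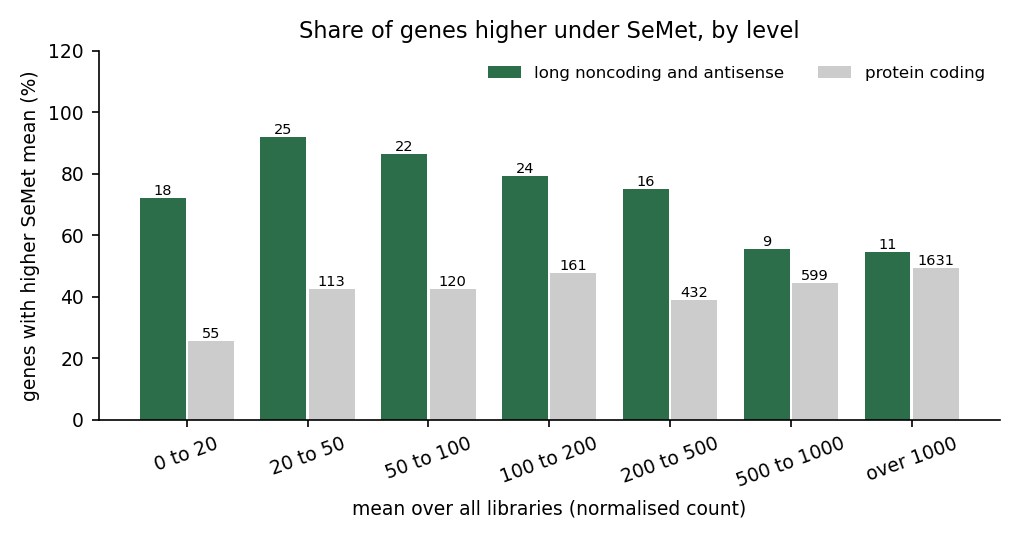
Share of genes with a higher mean in SeMet (vertical axis, percent) by the mean normalised count over all 8 libraries (horizontal axis), for long noncoding and antisense genes and for coding genes, with the number of genes above each bar. The noncoding bar is the taller in every level class, by the most between 20 and 50 normalised counts, at 92% against 42.5%.

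Among long noncoding genes of known role, Neat1 (chr19:5824708-5845478, minus strand) was the most abundant after Rian. It had 8219, 8598, 10984 and 12147 normalised counts in SeMet, against 4734, 4788, 6821 and 6618 in Control. Every SeMet library lay above every Control library. The log2 fold change was 0.80 ± 0.20 (SE), with a limma adjusted p of 0.00651 over the listed genes and 0.11 over all annotated genes, so that Neat1 did not pass the second threshold. Neat1 shares 1.85% of its exon length with another gene on its own strand.

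Rian, an imprinted transcript that hosts small nucleolar RNAs, had 12511, 12867, 13176 and 13566 normalised counts in SeMet, against 11020, 10346, 11600 and 12580 in Control. It rose by a log2 fold change of 0.20 ± 0.05 (adjusted p = 0.0247), although the highest Control library reached above the lowest SeMet library. Gm34081, a noncoding RNA of the same imprinted region, was at 115 ± 14.7 in SeMet and 78.6 ± 2.85 in Control and rose by 0.54. Dlk1, the coding gene nearest to Gm34081 and a transmembrane protein of the Notch ligand family, rose by 0.50. Pvt1, a long noncoding gene next to the growth regulator Myc, had 19.04 ± 2.73 in SeMet and 8.12 ± 2.42 in Control and rose by 1.16 ± 0.29. Myc itself rose by 0.47, with 235 ± 20.5 in SeMet and 170 ± 14.6 in Control. Gm34081 and the comparisons with Dlk1 and Myc were chosen after their values were seen.

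Gm42047, AI506816 and Cct6a were the next most abundant genes of the long noncoding class. Gm42047 rose by 0.38 ± 0.06, with 7042 ± 546 in SeMet and 5393 ± 385 in Control. AI506816 rose by 0.29 ± 0.04, with 4491 ± 53.7 in SeMet and 3669 ± 120 in Control. Cct6a encodes a subunit of the chaperonin that folds actin and tubulin. It is annotated as a processed transcript in this release, so it is counted in this class and, with Psph, among the pairs below. Cct6a had 4054 ± 109 in SeMet and 3765 ± 109 in Control (limma adjusted p = 0.152).

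The largest log2 fold changes upward belonged to low genes of no stated function. 4930447F24Rik (chr9:108133718-108138567, plus strand), which lies opposite the presynaptic scaffold gene Bsn, had 56.4, 62.4, 50.7 and 52.8 normalised counts in SeMet, against 8.05, 9.99, 7.40 and 14.2 in Control. Its groups lay far apart, and it rose by 2.41 ± 0.23 (adjusted p = 9.06e-07). Gm41031 had 17.2, 36.3, 15.9 and 31.5 in SeMet, against 3.45, 1.11, 4.23 and 11.5 in Control, and rose by 2.31 ± 0.46. The groups did not touch, but each spanned a wide range.

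Others rose by at least 1 on the log2 scale at similarly low levels. Gm26812 rose by 1.62, A530001N23Rik by 1.48 and 4930417O13Rik by 1.40. Gm43429, which lies in an intron of the zinc and manganese transporter gene Slc39a8 on the same strand, rose by 1.35 ± 0.24 with 32.03 ± 5.96 in SeMet and 11.9 ± 1.66 in Control, and Slc39a8 rose by 1.0. 1810017P11Rik rose by 1.32, 5930438M14Rik by 1.25 and Gm35409 by 1.18. Gm28187 had 185 ± 40.5 in SeMet and 81.2 ± 9.52 in Control and rose by 1.16, C030029H02Rik had 84.3 ± 5.22 in SeMet and 37.5 ± 2.96 in Control and rose by 1.15, and Gm11454 rose by 1.0. Gm16283 and Gm10030 had log2 fold changes of 1.86 and 1.16 but did not pass (adjusted p = 0.0945 and 0.0626), and Gm16283 was listed at 0 in Control replicate 1.

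Few long noncoding genes fell. Gm5860 (chr4:82065431-82102808, plus strand) had 99.5, 82.0, 84.6 and 91.7 in SeMet, against 177, 172, 210.3 and 207 in Control. All SeMet libraries lay below all Control libraries, and it fell by 1.09 ± 0.11 on the log2 scale (adjusted p = 1.84e-06). 6530402F18Rik fell by 1.13 ± 0.25, with 14.3 ± 4.34 in SeMet and 31.9 ± 6.63 in Control. Gm47163 fell by 0.52 ± 0.06. AC160336.1, Gm47155 and Gm42528 had log2 fold changes of -1.03, -1.04 and -1.08 and did not pass. AC160336.1 contains an opposite-strand match of 98.6% identity to the pseudogene Gm6532, described below.

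**Figure D3:**
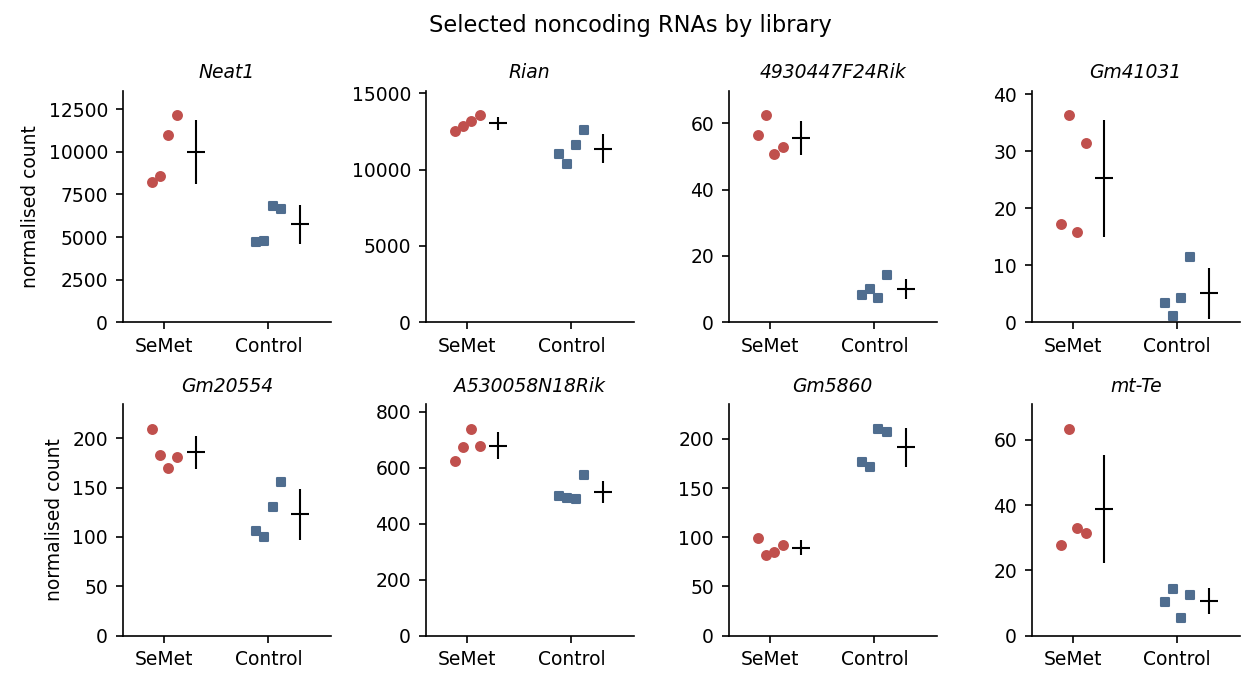
Normalised counts (vertical axis, from 0) of 8 noncoding genes in each library, SeMet left and Control right, with the mean and SD of 4 libraries beside the points. All but Rian show SeMet and Control libraries that do not overlap, and Gm5860 is the one gene shown that is lower in SeMet.

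Many noncoding genes start beside a coding gene, which allowed the pair to be compared, with 1 coding partner taken per gene and kind of pair. Of 41 genes whose start lay within 1000 bases of a coding start on the opposite strand, 19 had that coding gene in the table, and 16 of these pairs had the same direction. Of 52 genes that overlap a coding gene on the opposite strand, 16 had it in the table, with the same direction in 13. Counting each pair once, 22 of 28 went the same way and the noncoding change was the larger in 25. Both genes of each pair had passed the authors' selection, and no share of equal direction was computed for unrelated pairs. The sizes were not matched for level, and low coding genes of the table had larger median changes than abundant ones. Neither count can therefore be set against an expectation. The library kit named in the labels is not described there as keeping strand, and no source used here gives the strand setting of the counting. Reads of a gene and of its opposite-strand partner could therefore not be told apart where their exons overlap.

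Windows around the RefSeq starts of 2 such genes (GRCm38.p6) are printed because the start of the coding gene lies within a few bases of each window, 6 bases beyond it for Irx2 and 5 for Gjd2. Bases after the RefSeq start are in capitals.
Gm20554, chr13:72628515-72628814, minus strand: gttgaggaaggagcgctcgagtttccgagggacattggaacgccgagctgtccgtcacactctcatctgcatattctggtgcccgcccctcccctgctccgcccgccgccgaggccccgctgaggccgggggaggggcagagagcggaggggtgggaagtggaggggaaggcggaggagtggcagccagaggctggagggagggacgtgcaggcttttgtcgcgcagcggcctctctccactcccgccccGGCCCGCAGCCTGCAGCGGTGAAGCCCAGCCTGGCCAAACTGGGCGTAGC
A530058N18Rik, chr2:114013315-114013614, plus strand: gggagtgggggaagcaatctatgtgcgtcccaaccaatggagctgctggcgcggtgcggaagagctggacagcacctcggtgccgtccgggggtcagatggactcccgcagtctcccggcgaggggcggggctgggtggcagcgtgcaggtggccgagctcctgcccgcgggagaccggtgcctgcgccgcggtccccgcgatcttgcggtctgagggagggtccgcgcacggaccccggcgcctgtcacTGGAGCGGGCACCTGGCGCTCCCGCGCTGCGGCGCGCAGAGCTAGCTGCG
The dinucleotide CG, which reads the same on both strands, occurs 24 times in the Gm20554 window and 35 times in that of A530058N18Rik. At least as many occur in 20% and 6.95% of the 32851 windows of the table. Of the 166 genes, 71 had a window there by symbol.

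Gm20554, whose start lies 256 bases from that of the homeobox gene Irx2, had 209.5, 183, 170.1 and 181 normalised counts in SeMet, against 106, 99.9, 130.0 and 156 in Control. It rose by 0.61 ± 0.13, with no overlap between groups, and Irx2 rose by 0.30 ± 0.06. A530058N18Rik starts 17 bases from Gjd2, which encodes the beta cell gap junction protein connexin 36. It had 679 ± 47.3 in SeMet and 514 ± 40.3 in Control and rose by 0.40 ± 0.07, and Gjd2 rose by 0.32 ± 0.04 with 4835 ± 155 in SeMet and 3875 ± 153 in Control. A530058N18Rik shares 0.329% of its exon length with exons of the opposite strand.

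Further divergent pairs moved together. Gm47163, which fell, starts 62 bases from the adaptor gene Shc2, which fell by 0.20. Eldr rose by 0.53 and Fbxo48 by 0.43. The 3 divergent pairs of opposite sign were 5033430I15Rik with Atxn1 (0.40 and -0.25), Gm29170 with Trove2 (0.23 and -0.26) and Gm4890 with Mmaa (0.57 and -0.37). These divergent pairs, as well as the 2 of the printed windows, were chosen after their values were seen.

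Antisense genes whose sense partner was listed showed both patterns. Gm4419, opposite the 14-3-3 protein gene Ywhaq, had 453, 448.0, 439 and 489 in SeMet, against 261, 257, 287 and 244 in Control. The groups were far apart, and it rose by 0.80 ± 0.07 (adjusted p = 4e-07), while Ywhaq had a log2 fold change of 0.11 and did not pass. Gm43000, opposite the calcium channel subunit gene Cacna2d1, rose by 0.97 ± 0.21, and Cacna2d1 had 0.16 without passing. Gm45606 rose by 0.19 and its partner, the amino acid transporter gene Slc43a2, by 0.18, with 33.0% of the exon length of Gm45606 opposite other exons.

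Slc6a19os and Gm45486 rose while the sense gene fell. Slc6a19os had 144, 169, 135 and 144 in SeMet, against 78.2, 109, 98.3 and 115 in Control, and rose by 0.57 ± 0.13. Slc6a19, a neutral amino acid transporter, had 1160 ± 107 in SeMet and 2105 ± 83.8 in Control and fell by 0.86 ± 0.06 on the log2 scale. Gm45486 had 78.7 ± 5.25 in SeMet and 50.3 ± 9.83 in Control and rose by 0.65 ± 0.16, and Abcc8, the sulfonylurea receptor of the beta cell potassium channel, fell by 0.20 ± 0.05. Neither antisense gene shares exon sequence with the opposite strand. Both overlap the span of the sense gene, and whether reads from its introns were counted to them was not tested. 4930599N23Rik fell by 1.24 ± 0.33, as did Kdm7a by 0.28, which it overlaps, and Parp12 by 0.57, which starts 124 bases away.

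Without a listed sense partner, Gm26574, 1810062O18Rik and Gm40893 rose by 1.16, 1.2 and 1.08. Gm26574 lies opposite the phosphatase gene Ptpn14 and had 39.4 ± 7.69 in SeMet and 17.1 ± 3.51 in Control. 6330403L08Rik, opposite the growth factor gene Pdgfa, fell by 0.52 ± 0.07 with 421 ± 32.01 in SeMet and 603 ± 34.9 in Control. Gm16754, opposite Keap1, the sensor that restrains the oxidative stress factor NRF2, fell by 0.56 ± 0.11 with 93.2 ± 3.18 in SeMet and 138 ± 11.9 in Control. Gm4279, Gm16010 and Cyp4x1os had log2 fold changes of 1.25, 1.21 and 1.08 and Gm48350 had -1.23, none of which passed (adjusted p = 0.0646 to 0.0849). Igf2os lies opposite the insulin-like growth factor gene Igf2 and was chosen after its values were seen. Another gene of that locus was taken as its partner, so it is not among the counted pairs, and 23.2% of its exon length lies opposite other exons. It had 1861 ± 49.4 in SeMet and 2282 ± 127 in Control and fell by 0.29 ± 0.04, and Igf2 fell by 0.26.

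Pseudogenes were set beside the coding gene with the closest transcript. Such a match was found for 34 of 35, of which 19 matched a listed gene, and 17 of these had the same direction as that gene. Of the 20 with an identity of at least 95%, 13 matched a listed gene, all 13 in the same direction. No share of equal direction was computed for unrelated pairs here either. A read from a parent gene may be assigned to its copy, and no source used here says how reads that fit both were counted. The level of a copy ran from 0.013% to 129% of that of its match. Stretches of 60 bases show how close the copies are, from the coding sequence of the parent and the aligned pseudogene, chosen for the most mismatches and with those in capitals.
Tpi-rs11, chr6:127183655-127183714, minus strand: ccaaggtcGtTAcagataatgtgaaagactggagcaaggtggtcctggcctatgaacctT
Tpi1, coding sequence: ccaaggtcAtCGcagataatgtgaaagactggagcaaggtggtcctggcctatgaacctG
Gm6532, chr14:44265044-44265103, plus strand: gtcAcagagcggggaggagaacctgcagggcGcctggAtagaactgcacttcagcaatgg
Bnip3, coding sequence: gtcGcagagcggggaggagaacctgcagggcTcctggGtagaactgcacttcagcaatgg
Gm5345, chromosome 8: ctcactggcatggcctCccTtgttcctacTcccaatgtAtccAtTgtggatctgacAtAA
Gapdh, coding sequence: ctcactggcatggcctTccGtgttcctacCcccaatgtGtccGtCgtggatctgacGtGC
Even there, the first pair differs at 4, the second at 3 and the third at 9 positions.

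Copies of glycolytic genes, grouped by the role of the closest coding gene after the values were seen, fell as those coding genes did. Tpi-rs11 had 22, 12.1, 21.9 and 15.7 in SeMet, against 36.8, 33.3, 33.8 and 36.3 in Control, without overlap. It fell by 0.97 ± 0.23 on the log2 scale, and Tpi1, triosephosphate isomerase, fell by 0.45 ± 0.05. Gm4735 fell by 0.89 and its match, the enolase gene Eno1b, by 0.65. Eno1b was itself low, at 62.0 ± 7.28 in SeMet and 97.4 ± 4.87 in Control, and whether it is the parent was not tested. Gm1840 fell by 0.79 and Gpi1, glucose-6-phosphate isomerase, by 0.69. Gm5345 fell by 0.73, with 37.8 ± 2.59 in SeMet and 64.4 ± 12.2 in Control, and Gapdh fell by 0.44. Gm6560 fell by 0.58 and Pkm, pyruvate kinase, by 0.31. Pgam1-ps2, which is 100% identical to Pgam1 over its length, fell by 0.50 with groups that overlapped, and Pgam1, phosphoglycerate mutase, by 0.73.

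Gm6532, a copy of the mitophagy receptor gene Bnip3, had 1.91, 9.31, 2.98 and 6.48 in SeMet, against 11.5, 14.4, 16.9 and 14.2 in Control. The groups did not overlap, and it fell by 1.47 ± 0.40 on the log2 scale, as Bnip3 fell by 1.23 ± 0.20. Tpt1-ps3 fell by 0.32 and Tpt1, the translationally controlled tumour protein, by 0.29. Bambi-ps1 fell by 0.54, and Bambi, an inhibitory receptor of TGF-beta signalling, by 0.20. Gm6767, a copy of the elongation factor gene Eef1a1, had a log2 fold change of -1.06 and did not pass, as Eef1a1 did not at -0.13. On the higher side, AC105297.1 rose by 0.28 and its match, the kinetochore gene Ndc80, by 0.22. Gm8893 had 1.02 without passing, and its match, Serpina1a, a serine protease inhibitor, rose by 0.96. Gm49327 had 0.98 without passing, and Hpcal1 rose by 0.15.

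Gm28188 and Gm12993 had the opposite sign to their closest coding gene, both with an identity of 90% or less. Gm28188 rose by 1.23 ± 0.30, with 23.7 ± 9.30 in SeMet and 9.03 ± 1.34 in Control, while Ankrd37, a hypoxia-responsive gene, fell by 0.90 ± 0.10. Gm28188 lies near Gm28187, which also rose, on chromosome 1. Gm12993 fell by 0.67 while Snrpc, a protein of the U1 small nuclear particle, had 0.17 without passing. Of the pseudogenes whose match is not in the table, Gm13751 and Gm11460 rose by 1.47 and 1.14 and Gm12788 fell by 1.11. Gm15681, the most abundant pseudogene, had 1623, 1732, 1768 and 1840 in SeMet, against 2710, 2446, 2711 and 2655 in Control. Its groups lay far apart and it fell by 0.60 ± 0.05 (adjusted p = 5.58e-08). Its closest coding transcript is that of Ppp4r1, at 89% identity.

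**Figure D4:**
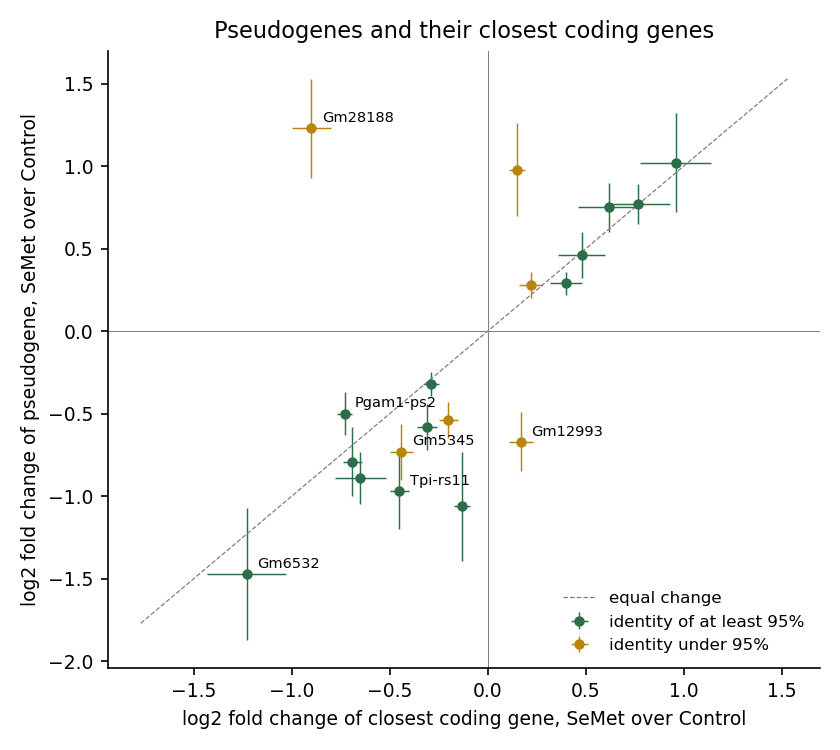
Log2 fold change of SeMet over Control for 19 pseudogenes (vertical axis) against that of the closest coding gene (horizontal axis), with SE bars and the line of equal change. 17 points lie in the quadrants of equal sign, and Gm28188 and Gm12993 lie in the other quadrants.

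A run of unprocessed pseudogenes on chromosome 1 is a nuclear copy of mitochondrial DNA. Gm28439 (chr1:24611535-24612410, minus strand), 100% identical to the complex I subunit gene mt-Nd4 along its length, had 231, 267, 279.6 and 296 in SeMet, against 123, 189, 151 and 172 in Control. Its groups did not overlap, and it rose by 0.77 ± 0.12, where mt-Nd4 had the same value of 0.77 ± 0.16 (adjusted p = 0.0615). Gm10222 rose by 0.75, and its match mt-Nd4l by 0.62. Gm10925 rose by 0.29, and its match, the ATP synthase subunit gene mt-Atp6, by 0.40. Gm29216, a copy of mt-Co1, had 0.46 without passing, and mt-Co1 had 0.48 without passing. All 10 mitochondrial coding genes in the table had higher means in SeMet, by 0.40 to 0.88, and 6 of them rose. Reads of these copies and of mitochondrial RNA cannot be told apart where they are identical.

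mt-Te, the mitochondrial transfer RNA for glutamate, was the only small RNA gene with a higher mean. It had 27.7, 63.3, 32.8 and 31.5 in SeMet, against 10.3, 14.4, 5.28 and 12.4 in Control. The groups did not overlap, and it rose by 1.78 ± 0.31 (adjusted p = 0.000981). Its 69 bases adjoin mt-Nd6, a complex I subunit gene on the same strand, which rose by 0.88 ± 0.11, with 11553 ± 672 in SeMet and 6311 ± 961 in Control. On its other side mt-Cytb, the cytochrome b gene, had 0.72 without passing.

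The 5 other small and ribosomal RNA genes, together with the long noncoding gene Gm26917 and the antisense gene Gm15564, had lower means in SeMet but depended on which Control library was looked at. Neither class nor the naming rule put Gm26917 and Gm15564 with the 5, and the group was set with these data known. A library pattern shared by the group is therefore no support for its belonging together. Rn7sk had 86.1, 26.1, 41.8 and 61.1 normalised counts in SeMet, against 1118, 115, 501 and 1188 in Control. Every SeMet library was below every Control library, but Control replicate 2 was close to the SeMet range. The log2 fold change was -3.40 ± 0.85 (SE), with a limma adjusted p of 0.121 over all annotated genes. CT010467.1, the gene annotated as ribosomal RNA, had 20621, 10301, 12253 and 7184 in SeMet, against 128555, 16704, 55751 and 83270 in Control. Its groups overlapped, and the log2 fold change was -2.26 ± 0.70.

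The near-identical genes printed above followed the same libraries. Gm23935 had 14444, 11831, 10889 and 5032 in SeMet, against 82336, 13841, 37433 and 77310 in Control, with a log2 fold change of -2.11 ± 0.68. Gm24270 had 80.6 to 228 in SeMet and 227 to 1176 in Control, with -2.0. Gm24187 had 28.9 to 104 in SeMet and 125 to 578 in Control, with -2.23. Gm15564 had 19.5 to 51.7 in SeMet and 65.5 to 298 in Control, with -2.34 ± 0.60, and lies opposite the ADP-ribosyltransferase family gene Parp9, which fell by 0.29. Gm26917 had 1136 to 1410 in SeMet and 1072 to 4302 in Control, with -0.97 ± 0.46, and was the one gene that missed the threshold over the listed genes (limma adjusted p = 0.0775). None of the 7 passed over all annotated genes.

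Gm26917 (chr17:39843013-39846341) and CT010467.1 (chr17:39846353-39848827) are neighbours with 11 bases between them. RefSeq places Rn18s-rs5, a gene related to 18S ribosomal RNA, at chr17:39846354-39848202, within CT010467.1. Exons of other genes overlap 37.4% of CT010467.1 on its own strand and 73.9% on the opposite strand. Per kilobase of exon, Gm23935 had 555078 normalised counts, CT010467.1 16963 and Rn7sk 1185 as means over all libraries, against a median of 60.4 over the 166 genes. Gm23935 is only 57 bases long, which raises its value per kilobase, and Gm24270, of the same sequence, had 7534.

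The 7 genes summed to 0.391%, 0.254%, 0.269% and 0.149% of the listed normalised counts in SeMet libraries 1 to 4, against 2.22%, 0.328%, 1.01% and 1.7% in Control libraries 1 to 4. Control replicate 2 thus lay within the SeMet range, and the other Control libraries above it. The sources used here do not say whether ribosomal RNA was removed or poly(A) RNA selected, and the part of library preparation in these values was not tested. Without Control replicates 1 and 4, an alternative chosen after seeing the data, Rn7sk had -2.27 with a limma adjusted p over the listed genes of 0.0491 and Gm15564 had -1.56 with 0.0201. The other 5 had -0.25 to -1.43 and did not pass. Neat1 had 0.79 with 0.0363 in the same fit. Under the adjustment over all annotated genes, 40 of the 166 genes were called higher and 14 lower in that fit, for which the share of all listed genes is not given.

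**Figure D5:**
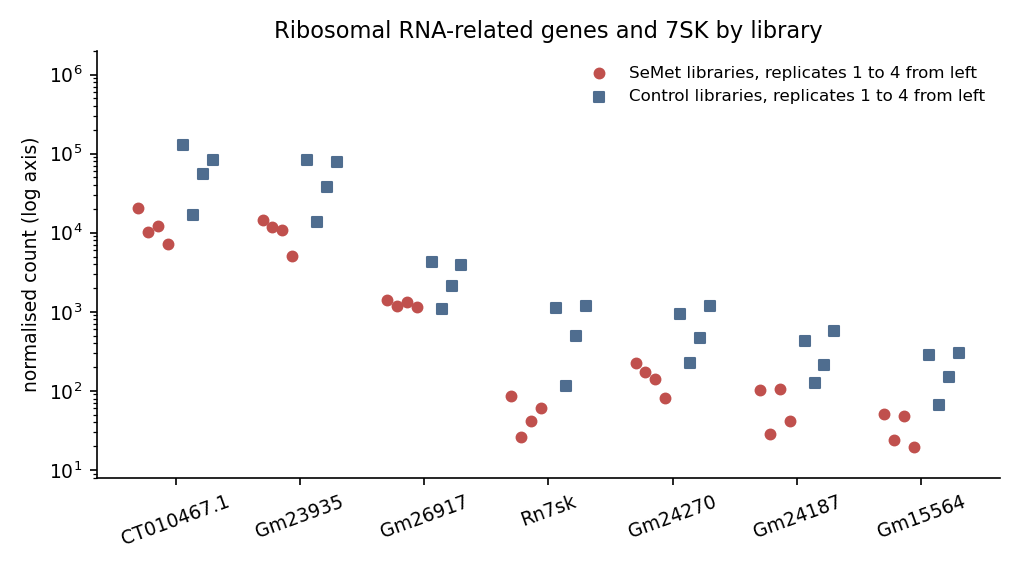
Normalised counts (vertical axis, log scale) of 7 genes in each library, SeMet libraries 1 to 4 left and Control libraries 1 to 4 right within each gene. Controls 1 and 4 are the highest for each gene, and Control 2 lies close to the SeMet libraries.

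Protein partners of these RNAs were few in the table. Among listed paraspeckle proteins, Cirbp rose by 0.18 and Hnrnpa1 fell by 0.19, while Matr3, Nono and Zc3h6 did not pass. Of 12 genes of the 7SK particle and P-TEFb 3 were listed and rose. These were the splicing factor gene Srsf2 with 0.19, the helicase gene Ddx21 with 0.21 and the phosphatase gene Ppm1g with 0.16, while Hexim1, Larp7 and Cdk9 were not listed. Of 17 snoRNA particle genes 5 were listed. Nop56 rose by 0.23, Nolc1 by 0.19 and Nop58 by 0.19, Naf1 fell by 0.33 and Fbl did not pass. Maf1, the repressor of RNA polymerase III, which transcribes 7SK, fell by 0.23 with 1637 ± 89.3 in SeMet and 1921 ± 48.1 in Control, while Polr3d and Gtf3c3 did not pass, and the other 24 of 27 genes of that list were not listed. Of 16 nonsense-mediated decay factors 3 were listed, of which Upf3b rose by 0.18. No gene was listed from 17 RNA polymerase I genes, 23 snoRNA host genes or 17 microRNA host genes, and 4 of 23 nuclear retained and imprinted noncoding genes were, namely Neat1, Rn7sk, Rian and Pvt1.

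The 94 members not named by the rule given with the methods ranged from -0.94 to 0.95 in log2 fold change. Among them 71 were higher and 23 lower in SeMet, of which 47 rose and 11 fell. Over all listed genes 47% were higher, 33.1% rose and 38.2% fell. The rule had taken out every member with a log2 fold change of at least 1 in size, so the 94 are not like the whole table. The 94 include Atp10d, which is annotated as a polymorphic pseudogene and fell by 0.54.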

How the data were processed

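Per the labels, RNA from 8 libraries of MIN6-K8 cells was isolated with a column kit and made into libraries with a NEBNext Ultra RNA kit. STAR, featureCounts and the build mm10 are named in the submitters' processing notes, with no versions. The deposited signal values per gene and library are read here as counts divided by a size factor by the authors, since values are whole multiples of 1 step per library, within 1e-06. Reads recovered from these steps describe depth only. No count test was run on them, since for most columns they did not pass a check on genes with low values.

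Values were analysed as log2(value + 1) over all 3278 genes with limma 3.58.1 (R 4.3.3, trend and robust variance, treatment only, no filter), two-sided, with Benjamini-Hochberg adjustment over the listed genes and over all 55536 annotated genes (threshold 0.05). Fold changes are SeMet over Control on that scale, which understates the change of low genes. The script was tested on simulated data. Gene types and positions came from GENCODE M21 for 3277 of 3278 identifiers, on GRCm38, the assembly of mm10. Copies were found with blastn 2.17.0 (word size 16, e-value 1e-10) among M21 transcripts. Promoter windows came from RefSeq, GRCm38.p6, 250 bases before to 50 after a start.

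Members and gene lists were chosen with earlier results of these data known. The rule for named genes took Neat1, Rn7sk and members of the noncoding lists, the 3 highest and 3 lowest per class among those past the stricter threshold, the 8 most abundant, every small or ribosomal RNA, any that missed the threshold over the listed genes, log2 fold changes of at least 1 in size, antisense genes with a listed sense gene and pseudogenes with a listed match, 72 in all. Alternatives were pseudocounts of 0.5 and 10, a mean of at least 50, median ratio and quantile scaling, limma without trend, a replicate block, leaving out each library, and leaving out genes with exon overlap. A result for 1 gene of the lists is not reported here.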

Additional observations from a re-analysis of the deposited data

Results flagged for a closer look

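Of 144 groups of 4 libraries over the 72 named genes, 6 held a library far from the other 3 by Dixon's criterion, where chance gives about 1 group in 20. In SeMet, mt-Te stood at 63.3 normalised counts in replicate 2, above the rest of its group, A530001N23Rik stood high at 25.01 in replicate 4, and AC105297.1 stood low at 271 in replicate 2. In Control, Gm42528 stood high at 23.3 in replicate 2, Gm11460 stood low at 9.51 in replicate 3, and Gm13751 stood low at 3.45 in replicate 1.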

How the results depend on the processing

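No result changed direction under any alternative run. Over 1153 alternatives for the other 70 named genes, 1125 kept direction and side of the threshold over the listed genes. Of the rest, 26 no longer passed and 2 newly passed. In the main fit 3277 of 3278 listed genes passed that threshold. These counts therefore do not show how stable the calls over all annotated genes are. Of the 26, 19 came from changing the adjustment to all annotated genes, and the causes were not tested. With genes of a mean of at least 50 only, which tests fewer genes, 70 members were higher (main 113). By the adjustment over all annotated genes 51 rose, 8 of them antisense, and the long noncoding median was 0.40 (main 0.52). Changing only the adjustment to all annotated genes gave 79 higher and 29 lower members and 0 lower small RNAs, with Neat1 at 0.80 (adjusted p = 0.11) and Rn7sk at -3.40 (adjusted p = 0.121). Members that fell numbered 19 after quantile scaling, 19 without trend and 15 without exon overlap, where 7 antisense genes rose. Without Control replicates 1 and 4, 40 members rose (28 long noncoding, 8 antisense), 14 fell (4 pseudogenes) and 1 small RNA was lower. Counts of all listed genes under these alternatives are not given.

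Leaving out 1 library at a time gave 113 higher and 51 to 53 lower members over the listed genes and 4 to 5 lower small RNAs. Over all annotated genes it gave 47 to 68 risen and 19 to 24 fallen members, 30 to 46 risen long noncoding genes, 10 to 14 risen antisense genes and 8 to 12 fallen pseudogenes. The share of all listed genes in each of these fits is not given. The medians were 0.49 to 0.52 for long noncoding genes and -0.40 to -0.31 for pseudogenes. Neat1 ranged from 0.70 to 0.89 (limma adjusted p over the listed genes 0.00842 to 0.0199) and Rn7sk from -4.13 to -3.01 (0.00121 to 0.0215).

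Whether same-numbered libraries were paired is not known. Deviations of same-numbered libraries correlated at 0.0126, 0.154, 0.0203 and -0.0111. These values cannot settle the question, since no differently numbered libraries were set beside them. With the replicate number as a block, 3 small RNAs were lower (main 5). Values of low genes rest on few reads, since 1 normalised count is close to 1 read, and carry counting error beside the spread between libraries.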
